A study of Homo sapiens with 2 samples.

Results

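The AP-1 genes described here are the 10 genes FOS, FOSB, FOSL1, FOSL2, JUN, JUNB, JUND, ATF3, BATF and BATF3, of 19775 genes named by the array. They were taken by name, with every probe set that the platform annotation assigns to 1 of them alone, which gave 22 probe sets. The list was drawn up with the response of some members already known, so the members were chosen by a rule that may rest on their signals in these 2 samples, and the differences between the samples are given as a description. The 2 samples of the study carry the label HL60, a cell line from a human promyelocytic leukaemia, and were grown in RPMI with 10% serum. In 1 sample the cells were untreated, and in the other they had been exposed to 3 µg/ml eltrombopag for 36 h. Eltrombopag is a small molecule that activates the receptor of thrombopoietin and can chelate iron. The stated aim was to find genes whose expression differs upon treatment. The labels name no vehicle and no culture time for the untreated sample, and the drug cannot be told apart from either.

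AP-1 is a dimeric transcription factor built from proteins with a basic region, which contacts DNA, and a leucine zipper, through which the subunits pair. JUN proteins can pair with each other or with FOS proteins, whereas FOS proteins need a partner of another family. FOS, FOSB, JUN and JUNB are immediate early genes: growth factors, stress and kinase signalling switch them on quickly, and their messages are short-lived. In myeloid cells AP-1 takes part in the differentiation of monocytes and in inflammatory gene expression.

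Values are MAS5 signals, a linear brightness per probe set. Signals under a floor of 56.9, the 60th percentile of both samples pooled, were raised to it, and a gene is called measured where its brightest probe set exceeded the floor in 1 sample or both. Of the 10 members, 9 were measured, each above the floor in both samples, and FOSL1 was not. Of the 22 probe sets, 11 lay above the floor in both samples, 1 in the untreated sample alone and 10 in neither. With 1 array per group there is no replicate check and no test of the treatment, and every ratio is the eltrombopag over the untreated array. Fewer cells of a type and less RNA per cell cannot be told apart in such bulk samples. Among 10324 measured genes the median log2 ratio was -0.12, so a ratio near that value is near the middle of the arrays.

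The regulatory sequence next to the genes is shown first, because FOS and FOSB, the 2 members with by far the highest ratios of eltrombopag over untreated, have promoters with the same pair of short words. The table of RefSeq promoters on GRCh38.p14 held 8 of the 10 members, FOSL1 and BATF3 being the others. The 250 bases before the RefSeq start are given 5′ to 3′ on the strand of the gene, with position -1 next to the start. Capitals mark matches to TGACGT, the core of the cyclic AMP response element that CREB and ATF proteins bind, to its full form TGACGTCA, to TGACATCA, a close relative found in the JUN promoter, and to TATAAA, a form of the TATA box. FOS lies at chr14:75278578-75278827, plus strand; FOSB at chr19:45467746-45467995, plus strand; JUN at chr1:58784048-58784297, minus strand. JUND, at chr19:18281623-18281872, minus strand, is shown as a promoter with the full response element.
FOS: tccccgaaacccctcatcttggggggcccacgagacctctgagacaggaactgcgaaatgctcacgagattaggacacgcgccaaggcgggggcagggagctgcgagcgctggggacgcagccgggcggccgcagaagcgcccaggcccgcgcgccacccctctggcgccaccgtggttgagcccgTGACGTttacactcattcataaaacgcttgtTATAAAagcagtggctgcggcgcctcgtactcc
FOSB: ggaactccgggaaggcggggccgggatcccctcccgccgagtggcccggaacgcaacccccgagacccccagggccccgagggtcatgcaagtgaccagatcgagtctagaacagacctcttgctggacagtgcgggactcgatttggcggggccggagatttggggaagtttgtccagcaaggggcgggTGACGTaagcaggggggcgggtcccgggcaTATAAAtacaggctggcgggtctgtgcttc
JUN: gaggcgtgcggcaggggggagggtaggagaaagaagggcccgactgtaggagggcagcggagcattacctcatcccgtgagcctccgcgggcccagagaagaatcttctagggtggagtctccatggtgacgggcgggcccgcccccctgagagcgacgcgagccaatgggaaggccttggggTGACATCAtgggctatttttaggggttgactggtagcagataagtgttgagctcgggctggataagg
JUND: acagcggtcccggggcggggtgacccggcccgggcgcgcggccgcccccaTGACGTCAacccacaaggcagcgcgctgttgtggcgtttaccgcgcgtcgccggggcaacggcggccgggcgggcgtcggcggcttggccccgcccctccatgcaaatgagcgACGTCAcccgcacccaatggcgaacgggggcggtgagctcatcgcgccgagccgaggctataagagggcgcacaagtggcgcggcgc

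In FOS, TGACGT began at position -64, read on as TGACGTTT, and TATAAA began at -33. In FOSB, TGACGT began at -60, read on as TGACGTAA, and TATAAA began at -30. JUN held TGACATCA at -67 and neither of the other words. JUND held TGACGTCA at -200 and the core on the opposite strand at -87, with no TATAAA. The full element holds the core on both strands, so these matches overlap at -200. FOSL2 held the core at -66 without TATAAA, and JUNB held TATAAA at -31 without the core. ATF3 has 2 promoters in the table, 1 with TGACATCA at -123 and 1 with TATAAA at -230, and BATF held none of these words. TGAGTCA, the AP-1 site proper, and the CArG box, bound by serum response factor, were searched on both strands. They matched in none of the 9 windows. Sequence farther upstream was not searched, so a site there, in FOS or another member, would have been missed.

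Of 35116 promoter windows of this length, 7.10% held the core on either strand, 1.65% the full element, 2.37% TGACATCA, 4.20% TGAGTCA, 1.16% a CArG box and 6.80% TATAAA on the strand of the gene. Both the core and TATAAA occurred in 0.436% of the windows. FOS and FOSB were the 2 measured members that held both. A match is a stretch of letters and says nothing of whether a protein was bound there in these cells.

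FOSB, whose protein pairs with JUN proteins and whose transcript is also spliced to a shortened form, had an untreated signal of 80.3 and one of 529.9 with eltrombopag. FOS, the cellular counterpart of a retroviral oncogene and the founding partner of JUN, had 153.3 and 575.4. Both were far higher in the eltrombopag sample, FOSB by 6.60-fold (log2 ratio 2.72) and FOS by 3.75-fold (log2 ratio 1.91). FOSB ranked 2 and FOS 8 from the top among the 10324 measured genes. Each rests on 1 probe set, so no second probe set of the same gene checks the value, and splice forms of FOSB were not separated.

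These were the only members past 2-fold: of the 9 measured, 2 were higher by 2-fold or more and 0 were lower by as much, beside 0.649% and 2.27% of all measured genes. Among the 4862 genes with a mean signal between 200 and 1000, the range in which FOS and FOSB lie, 0.638% were higher by 2-fold or more and 2.1% lower. The members' median log2 ratio was 0.03, against -0.12 over all measured genes. With 7 of 9 members below 2-fold, the difference lay in FOS and FOSB and was not shared by the measured family as a whole.

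**Figure D1:**
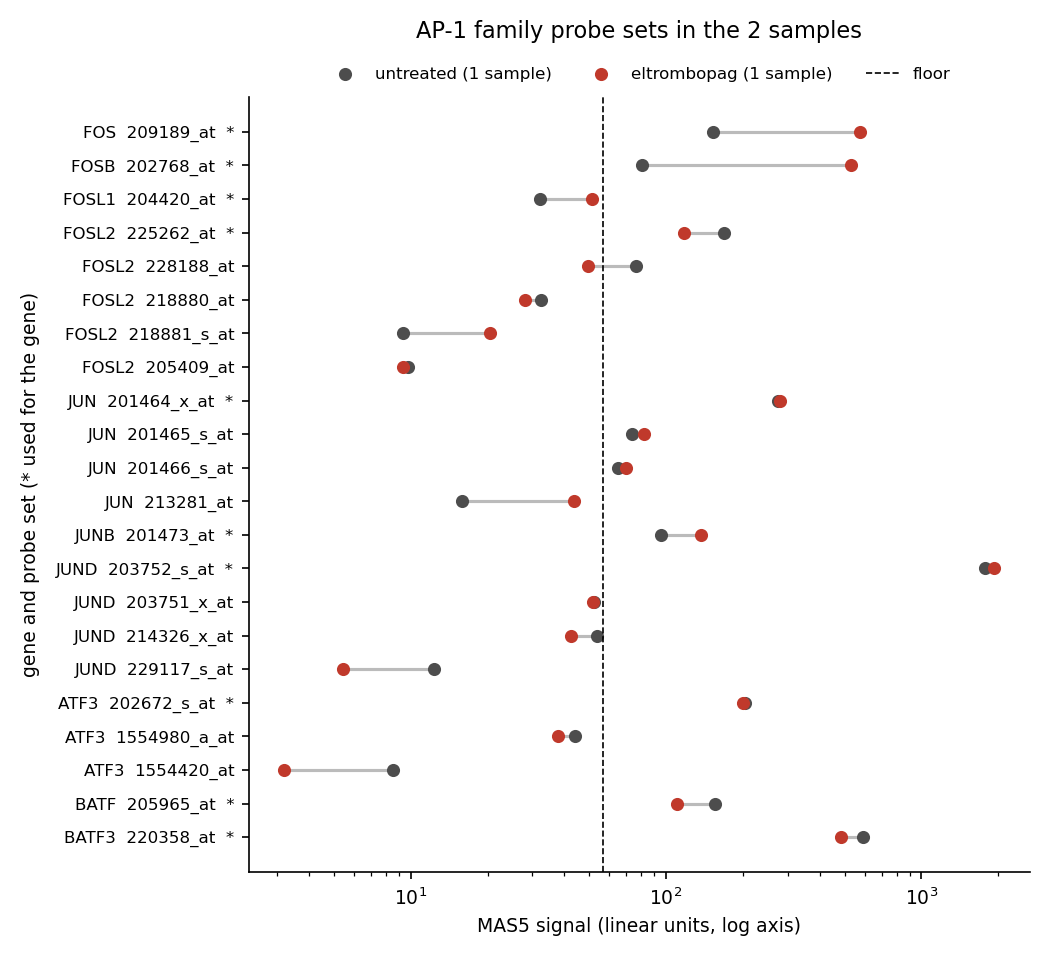
MAS5 signal on a log axis for each of the 22 probe sets of the 10 AP-1 genes, with 1 grey point for the untreated and 1 red point for the eltrombopag sample, joined by a line. FOSB went from 80.3 to 529.9 and FOS from 153.3 to 575.4, while the starred probe sets of the other genes lie close together and FOSL1 stays left of the dashed floor of 56.9.

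The other FOS genes gave no such ratio at this floor. FOSL1, which encodes FRA1, a FOS relative without the strong activation domain of FOS, had signals of 32.2 untreated and 51.5 with eltrombopag. Both lie below the floor, the second close under it, so no ratio is given for it here. With a lower floor or none, FOSL1 was 1.60-fold higher. FOSL2, which encodes the related FRA2, had 168.2 and 117.8 in its brightest probe set, a log2 ratio of -0.51. A second FOSL2 probe set went from 76.3 to 49.3, below the floor in the eltrombopag sample, and its ratio with the floor applied was -0.42. The other 3 FOSL2 probe sets lay between 9.32 and 32.4 in both samples, below the floor. FOSL2 was thus lower in both probe sets that could be read, by less than 2-fold.

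Among the JUN proteins, which supply the other side of the dimer, JUN itself was nearly level. Its brightest probe set had 274.0 untreated and 279.1 with eltrombopag, a log2 ratio of 0.03. The next 2 gave 73.4 and 81.8, and 64.8 and 69.6, with log2 ratios of 0.16 and 0.10. The 3 readable probe sets of JUN therefore gave a narrow range of ratios. The remaining probe set, at 15.9 and 43.6, lay below the floor in both samples.

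JUNB, a JUN relative that can restrain JUN activity, had 95.9 untreated and 136.6 with eltrombopag, or 1.42-fold. Its log2 ratio of 0.51 was exceeded by 4.78% of measured genes, and it rests on 1 probe set. JUND, the member of the family that is typically present without stimulation, had 1768 and 1929 in its brightest probe set, a log2 ratio of 0.13. Its other 3 probe sets lay below the floor in both samples, between 5.42 and 53.5. All 3 JUN genes thus had ratios above 0 on the deposited scale, and none reached 2-fold. Those of JUN and JUND were smaller than 0.18, the SD given below for probe sets of 1 gene.

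ATF3 is a stress-induced factor that pairs with JUN proteins and often represses. Its brightest probe set had 203.4 untreated and 199.8 with eltrombopag, a log2 ratio of -0.03, and the other 2 lay below the floor in both samples. ATF3 had no settled direction, since the ratio was 0.08 after median centring and 0.11 after both quantile normalization and lowess.

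BATF and BATF3 are short AP-1 proteins of lymphoid and dendritic cells that lack an activation domain of their own and bind DNA with JUN proteins and with IRF4 or IRF8. BATF had 155.3 untreated and 110.0 with eltrombopag, a log2 ratio of -0.50. BATF3 had 591.7 and 483.9, a log2 ratio of -0.29. They were 1.41-fold and 1.22-fold lower, each in its single probe set. Of their partners, IRF4 went from 676.9 to 131.2, 5.16-fold lower, and IRF8 from 66.5 to 67.0, just above the floor. IRF8 was looked up after the values were known.

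**Figure D2:**
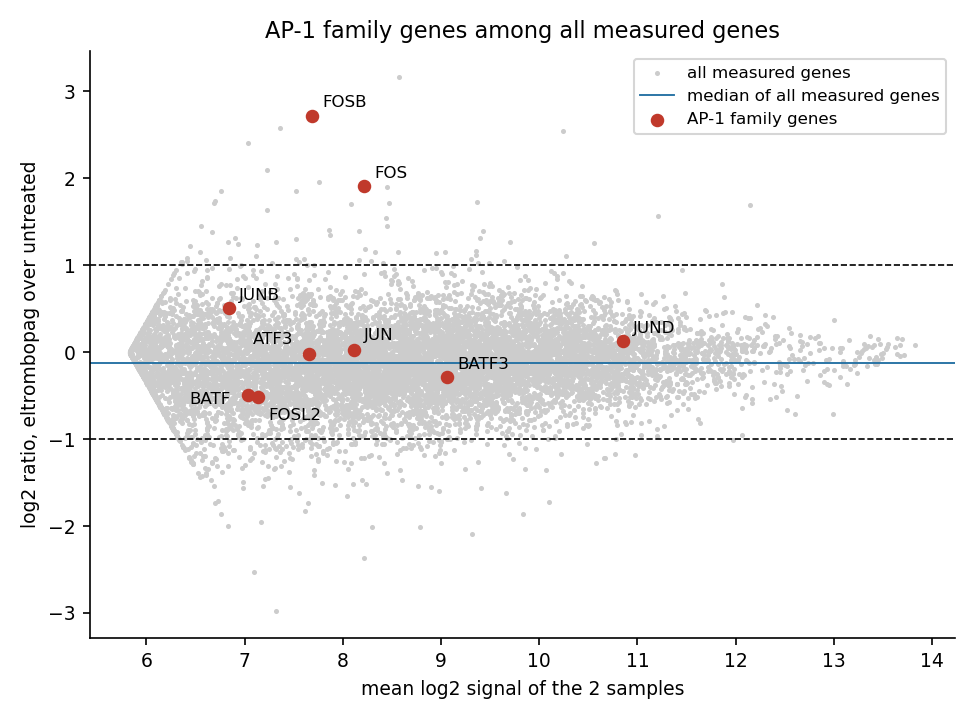
Log2 ratio of eltrombopag over untreated against the mean log2 signal of the 2 samples, with each measured gene as a grey point and the 9 measured AP-1 genes in red. Dashed lines mark 2-fold and the blue line the median of all genes, -0.12; FOSB at 2.72 and FOS at 1.91 lie above the upper dashed line and the other 7 between the lines.

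FOS and BATF lie near each other in the genome and did not share a ratio. On chromosome 14 of GRCh38.p14, the protein-coding genes from FOS to BATF are FOS, JDP2 and BATF, which all encode AP-1 proteins. Their log2 ratios were 1.91, 0.03 and -0.50. JDP2, a dimerization partner and repressor of JUN, had 619.7 untreated and 634.4 with eltrombopag. On chromosome 1, GARIN4, below the floor in both samples, lies between ATF3 and BATF3, whose ratios were -0.03 and -0.29.

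The genes most like FOS and FOSB were sought by distance in the log2 signals of the 2 samples, which is a likeness of only 2 values. The 3 nearest to FOS were ACSS2, an acetyl-CoA synthetase, at 150.3 and 490.4 (distance 0.23), C3AR1, a complement receptor, at 181.3 and 676.8 (distance 0.34), and TSPYL2 at 177.2 and 465.7 (distance 0.37). The 3 nearest to FOSB were the histone genes H2BC21, at 67.5 and 401.9 (distance 0.47), and H2AC6, at 109.3 and 425.9 (distance 0.55), and LLGL2, a cell polarity gene, at 96.5 and 350.5 (distance 0.65). The probe sets used for the 3 neighbours of FOSB carry the suffix _s_at, which marks probes shared by several transcripts.

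Other proteins of the basic leucine zipper class, to which AP-1 belongs, were examined next. Of 19 measured members of a list of 24, 0 were higher by 2-fold or more and 2 were lower, beside 0.649% and 2.27% of all measured genes. The median log2 ratio of the list was -0.16. NFE2L3 went from 218.1 to 99.9, 2.18-fold lower. A dimmer probe set went from 67.5 to 40.3, below the floor with eltrombopag, a log2 ratio of -0.74 without the floor. NFE2, a factor of erythroid cells and megakaryocytes, went from 157.2 to 75.4, 2.09-fold lower. Neither passed 2-fold after quantile normalization or lowess, with 0 of the list lower by 2-fold under both. CREM, which encodes activators and repressors of cyclic AMP responsive genes, had a log2 ratio of -0.56, with -0.78 in a second readable probe set. DDIT3, the stress factor CHOP, had 635.8 and 922.8, a log2 ratio of 0.54.

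The kinases and serum response factors that act on FOS and JUN were, as transcripts, all within 2-fold. Of 26 measured genes, 8 ratios were above 0 and 18 below, beside 36.6% and 63.4% of all measured genes, and the median was -0.21. MAPK11 and MAPK13, p38 kinases, had log2 ratios of -0.79 and -0.56. ELK3, a ternary complex factor that binds DNA with serum response factor, had -0.67, and MRTFB, a cofactor of serum response factor, -0.61. SRF itself had 324.9 and 265.8, a log2 ratio of -0.29. These are transcript levels, and kinase activity was not measured.

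Genes that shorten or prolong the life of AP-1 messages and proteins were also within 2-fold by their brightest probe sets, 14 of 14. Their median log2 ratio was -0.10. Of all measured genes, only 0.649% were higher and 2.27% lower by 2-fold or more. HNRNPD had -0.16 in its brightest probe set, while its others above the floor ran from -1.07, which is past 2-fold, to 0.38. FBXW7, the ubiquitin ligase subunit that marks phosphorylated JUN for destruction, had 829.1 and 1278, a log2 ratio of 0.62, with 0.75 and 0.28 in 2 further probe sets above the floor. ZFP36L1, which binds AU-rich messages and promotes their decay, had 0.40. Its relative ZFP36L2 had -0.40 in the brightest probe set but 0.18 in the next. ELAVL1, which protects AU-rich messages, had -0.40, with -0.50, -0.03 and 0.16 in its other probe sets above the floor.

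Other immediate early genes showed a mixed picture beside FOS and FOSB. Of 16 measured genes, 1 was higher by 2-fold or more and 0 lower, beside the same 0.649% and 2.27%. The ratio was above 0 in 8 of them and below in 8, beside 36.6% and 63.4% of all measured genes, with a median of 0.03. EGR1, a zinc finger factor induced with FOS, had 550.7 and 932.2 in its brightest probe set, 1.69-fold. The other 2 EGR1 probe sets went from 424.4 to 799.0 and from 284.8 to 448.0, so all 3 were higher by less than 2-fold. CSRNP1, a nuclear protein induced by growth signals, had 93.3 and 171.4, 1.84-fold, and SGK1, a kinase induced by serum and glucocorticoids, 72.2 and 117.5, 1.63-fold.

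PPP1R15A, the phosphatase subunit GADD34 that acts on eIF2α, was the member past 2-fold, at 53.1, below the floor, and 206.3. It was at least 3.63-fold higher in that probe set, while its other one went from 73.2 to 136.4, below 2-fold. IER2 and MYC, with log2 ratios of -0.03 and -0.12, were close to the median of all genes. KLF10 had -0.56, and 7 genes of the list, among them EGR3, IER3 and NR4A1, lay below the floor in both samples.

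Genes taught as AP-1 targets ran mostly below 0, as did all measured genes. Of 27 on the array, 14 were measured, of which 1 was higher and 2 were lower by 2-fold or more, beside 0.649% and 2.27% of all genes. The ratio was above 0 in 3 of the 14 and below in 11, beside 36.6% and 63.4%, with a median of -0.34. CXCL8, the neutrophil chemokine interleukin-8, had 127.2 and 1138, 8.95-fold higher, in a probe set with the suffix _x_at, which marks probes that may also match other sequences. Its other probe set, at 17.15 and 47.43, lay below the floor in both samples. TNF, an inflammatory cytokine, went from 391.8 to 188.6, 2.08-fold lower, and MT2A, a metallothionein, from 1300 to 556.8, 2.33-fold lower. The TNF probe set ends in _s_at and that of MT2A in _x_at. The count of targets at least 2-fold lower was 1 after median centring, quantile normalization or lowess. It was 0 when probe sets ending in _x_at or _s_at were left out. VIM, the intermediate filament vimentin, had -0.89, CD44 -0.35, TIMP1 -0.34 and PLAU -0.57. The dimmer CD44 probe sets above the floor ran from -0.97 to 0.38. CCND1, cyclin D1, had 410.5 and 415.0. MMP1, MMP3, MMP9, IL6, CCL2 and PTGS2 lay below the floor in both samples.

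**Figure D3:**
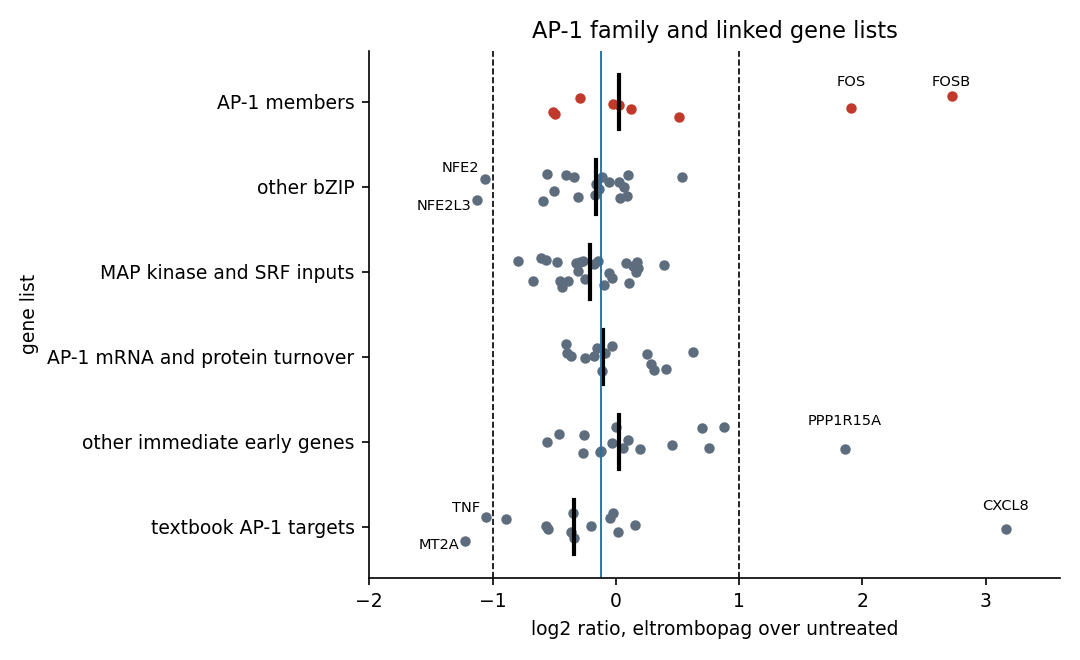
Log2 ratio of eltrombopag over untreated for each measured gene of 6 lists, 1 point per gene, with a black bar at the list's median, dashed lines at 2-fold and a blue line at the median of all genes. FOS, FOSB, PPP1R15A and CXCL8 lie right of the upper line, and NFE2, NFE2L3, MT2A and TNF left of the lower one.

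The pair of words in the FOS and FOSB promoters was then looked for next to other genes, with limits set after these promoters had been seen. TGACGT on either strand between -100 and -41 together with TATAAA between -45 and -16 occurred in 0.108% of windows, which named 8 measured genes: FOS, FOSB and 6 others. Of these 6, 2 were at least 2-fold higher, PPP1R15A and the histone gene H2BC12, which went from 203.5 to 593.9, beside 0.577% of 8499 measured genes with any promoter in the table. UBE2S, a ubiquitin-conjugating enzyme of mitosis, was at least 2-fold lower, from 648.9 to 234.0, beside 2.15%. CSRP1, FLT1 and SRSF3 had log2 ratios of -0.55, -0.41 and -0.07. The ratios of the 6 thus ran in both directions. With both words anywhere in the 250 bases, 40 measured genes other than the members were named. Of these 40, 2 (5%) were at least 2-fold higher, again PPP1R15A and H2BC12, and 2 (5%) lower, with a median log2 ratio of -0.09. Whether the words have a part in the ratios was not tested.

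Marker lists were read beside these results. Of 10 promyelocyte genes on the array, 8 exceeded the floor in both samples, including MPO at 1556 and 1467, while ELANE and SPI1 lay below it in both. The ratio was below 0 in 6 of the 8, beside 63.4% of all measured genes. Only 1 of the 8 passed 2-fold, beside 2.27% of all measured genes at least 2-fold lower. This was CEBPA, a granulocyte transcription factor, 2.93-fold lower, from 818.7 to 279.1. Of 12 genes listed as plasma cell markers, 11 exceeded the floor in both, with JCHAIN at 7972 and 4866. CD38 was near the floor, at 95.3 and 75.2, and CD27 lay below it in both samples. By their brightest probe sets, 6 of the 11 were at least 2-fold lower with eltrombopag, beside 2.27% of all measured genes. These were SDC1, TNFRSF17, IRF4, SLAMF7, POU2AF1 and CAV1. Samples labelled HL60 thus held abundant transcripts of some listed plasma cell genes, JCHAIN among them, and lacked readable ELANE and SPI1. The identity of the cells was not tested. The summed signal of the plasma cell list was 18110.5 untreated and 10934 with eltrombopag, and that of the promyelocyte list 9124 and 9526, in which MYB alone went from 4349 to 5855. All 6 monocyte genes on the array, CD14 and CSF1R included, lay below the floor in both samples. Of 4 B cell genes 2 were measured, PAX5 at 132.1 untreated and below the floor with eltrombopag, and CD22 at 114.6 and 94.7. Of 6 T cell genes 2 were measured, CD4 at 714.4 and 511.4, and CD3E, above the floor with eltrombopag alone. The plasma cell genes were thus lower in the sample in which FOS and FOSB were higher, and their part in the differences of the AP-1 genes was not tested.

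The ratios of FOS and FOSB were compared across 8 other ways of scaling the arrays, setting the floor and combining probe sets. FOS ran from 1.75 to 2.04 on the log2 scale and FOSB from 1.64 to 2.86, and both passed 2-fold in every one. A lower floor, no floor, the mean over probe sets and leaving out _x_at or _s_at could not change either gene. Each has 1 probe set, without those suffixes and above the floor in both samples. The lowest FOSB ratio, 3.11-fold, came with the floor at the 75th percentile, a signal of 170.5, above the untreated FOSB and FOS signals, so both folds are lower bounds there. JUN, JUNB and JUND had ratios above 0, and FOSL2, BATF and BATF3 below 0, in each of the settings that gave them a value. None of these 6 genes reached 2-fold in any of them.

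**Figure D4:**
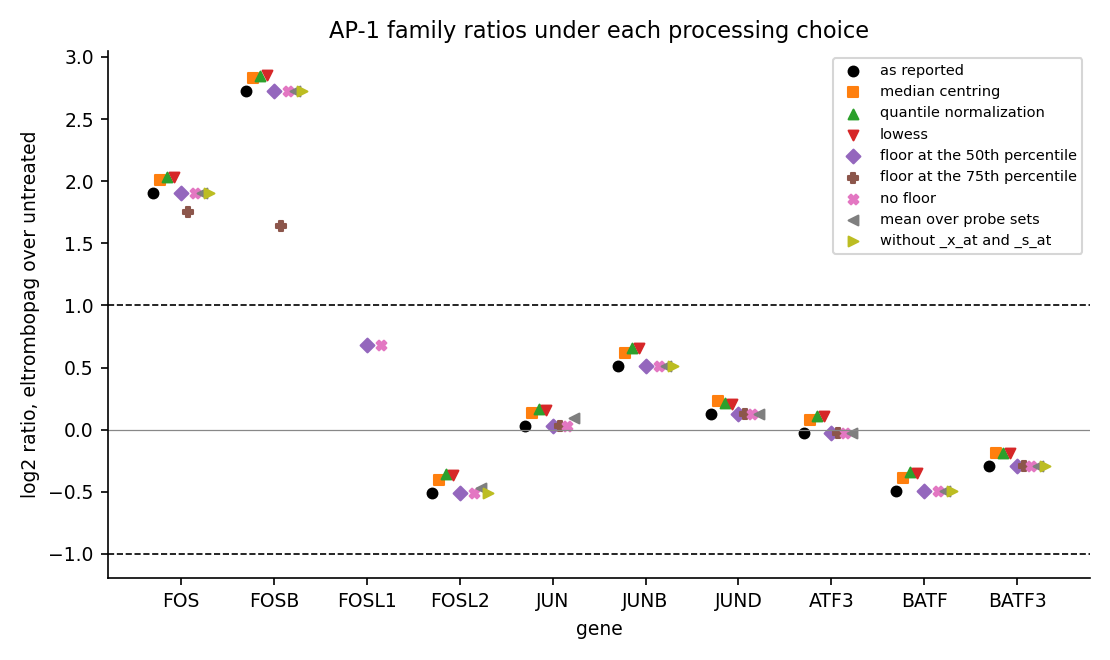
Log2 ratio of eltrombopag over untreated for each AP-1 gene as reported (black) and under 8 other settings (coloured symbols), with dashed lines at 2-fold; a gene below the floor under a setting has no symbol. FOS stays between 1.75 and 2.04 and FOSB between 1.64 and 2.86, FOSL1 has a value of 0.68 under 2 settings, and no other gene reaches a dashed line.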

How the data were processed

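RNA was labelled as biotinylated cRNA for Affymetrix arrays, per the labels' protocols. The authors deposited 1 signal intensity per probe set and sample; the tool was MAS5, per the submitters' processing notes. The sources used here do not give its version or scaling. MAS5 works array by array, and low signals carry large relative error. Only 1 array per group limits the precision, and the median signal was 32.8 untreated and 31.5 with eltrombopag.

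Of 54613 probe sets, 41091 named 1 gene in the platform annotation, 1801 several and 11721 none; 41037 matched the RefSeq gene table of GRCh38.p14 by identifier, which changed 0 symbols. Signals were used as deposited, floored at the 60th percentile and turned into log2. A gene is its probe set with the highest mean log2 signal. Calls are ratios of at least 2-fold, with no test behind them; the counting step was checked on simulated arrays with known changes. The members, lists and tests were chosen with earlier results of these data known. Genes named are all members, list genes past 2-fold or the up to 4 largest changes of a list, the 3 nearest genes to FOS and FOSB, and the markers. SRF, IER2, MYC, KLF10, CD44, TIMP1, PLAU, CCND1, JDP2, IRF8 and HNRNPD were chosen after their values were seen. So were the list genes named as below the floor and the genes named by promoter words. The alternatives were median centring, quantile normalization, lowess (span 0.3, statsmodels 0.14.6), other floors, thresholds of 1.5-fold and 3-fold, the mean over probe sets, and leaving out those that end in _x_at or _s_at.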

Additional observations from a re-analysis of the deposited data

How the results depend on the processing

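The spread between probe sets of a gene served as the only error: over 4373 genes with 2 readable probe sets, the SD of their distance from the pair's mean log2 ratio was 0.18, which is not an error between replicates. Of 86 values for the members under the alternatives, 85 moved by less than this or, for counts, by less than 1.5 times. The exception was FOSB, whose log2 ratio was 1.64 with the floor at the 75th percentile, which lies above its untreated signal. Some of the 85 values could not move, such as those of FOS and FOSB under a lower floor, no floor or the mean over probe sets. The count of members at least 2-fold higher was 2, and of those lower 0, under every alternative run, the 1.5-fold and 3-fold thresholds included. FOSL1 had a log2 ratio of 0.68 with the floor at the 50th percentile or without one. When probe sets ending in _x_at or _s_at were left out, ATF3 and JUN lay below the floor and JUND had no probe set. The scaling moved the median of all genes from -0.12 to -0.02 after median centring, -0.01 after quantile normalization and -0.03 after lowess; relative to the deposited median, FOSB stood at 2.84, FOS at 2.03, JUNB at 0.63, JUND at 0.25, JUN at 0.15, FOSL2 at -0.39, BATF at -0.38 and BATF3 at -0.17. Genes at least 2-fold higher numbered 67 and lower 234 as deposited, 97 and 154 after median centring, 108 and 133 after quantile normalization and 104 and 137 after lowess, so the balance of directions over all genes depends on the scale. For the other lists, 24 of 100 counts moved by more than 1.5 times. CXCL8, the only target gene at least 2-fold higher, was lost from that count when probe sets ending in _x_at or _s_at were left out. TNF and MT2A were then lost from the count of lower targets.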

Other observations

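Genes with TATAAA in the 250 bases before the start, like FOS and FOSB, differed by 2-fold more often in both directions than genes in the promoter table at large; the comparison was made after the FOS and FOSB promoters had been seen, and was not tested. Without the AP-1 members, 419 measured genes held TATAAA, of which 13 (3.10%) were higher and 19 (4.53%) lower by 2-fold or more, beside 0.577% and 2.15% of 8499 measured genes with any promoter in the table. The higher ones included CXCL8, the sterol synthesis enzyme HMGCS1, the transferrin receptor TFRC, the complement receptor C3AR1 and the histone genes H2AC6, H2BC5, H2BC12 and H2BC21, which are alike in sequence and not independent measurements. The lower ones included the retinoic acid hydroxylase CYP26A1, IRF4, TNF, MT2A and CEBPA. For the core TGACGT the values were near those of all genes, with 6 of 1116 genes (0.538%) higher and 20 (1.79%) lower by 2-fold or more.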
